A study of Mus musculus with 8 samples.

Results

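Transcripts of 10 genes of the epidermal growth factor (EGF) system were followed in mixed co-cultures of mouse colon cancer cells and spleen cells. The 10 genes are the ligand genes Areg, Ereg, Hbegf, Tgfa, Btc and Epgn, the receptor genes Egfr, Erbb2 and Erbb3, and Lrig1, an inhibitor of the receptors. They were taken by gene name from a list drawn up with earlier results of these data known, and are 10 of 52636 gene IDs in the tables. There were 4 co-cultures with trogocytic cancer cells and 4 with non-trogocytic cancer cells, the control. In trogocytosis a cell takes up pieces of the membrane of a neighbour, with the proteins in them. The cancer cells of both groups came from tdTomato-labelled colon cancer organoids that, once injected into the spleen, had colonised the liver. Sorting by tdTomato and by CD4, which helper T cells carry on their surface, separated them. Either population was then kept for 5 days with splenocytes of Actin-GFP reporter mice, at 1 cancer cell to 50 splenocytes, and the strain is given as C57BL/6. The labels name neither the age nor the sex of the animals nor the driver mutations of the organoids, and they do not say that replicates came from separate animals. The p-values therefore reflect the spread among these libraries alone, and it may be technical.

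The ligands of this family are made as membrane proteins and released by proteases of the ADAM family. They share a fold held by 3 disulphide bonds between 6 cysteines. Amphiregulin (Areg), epigen (Epgn) and transforming growth factor alpha (Tgfa) bind EGFR, while betacellulin (Btc), epiregulin (Ereg) and heparin-binding EGF (Hbegf) bind both EGFR and ERBB4. Bound receptors pair and phosphorylate each other, which activates RAS and the MAP kinases as well as PI3 kinase. ERBB2 has no known ligand of its own and ERBB3 has a weak kinase, so both act mainly in pairs with another receptor. In the intestine EGFR signalling supports stem and progenitor cells, and LRIG1, which marks many of these cells, limits it. Amphiregulin is also made by several types of immune cell.

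Areg, Ereg, Btc and Epgn lie within 376 kb of chromosome 5 in the mouse build GRCm38. Epgn runs from 91027464 to 91035215, Ereg from 91074622 to 91093646 and Areg from 91139599 to 91148432, all on the plus strand, and Btc from 91357261 to 91402994 on the minus strand. Tgfa is on chromosome 6 from 86195223 to 86275719 and Lrig1 on chromosome 6 from 94604529 to 94700158. Egfr is on chromosome 11 from 16752203 to 16918158, Erbb2 on chromosome 11 from 98412470 to 98437716, and Erbb3 on chromosome 10 from 128567523 to 128589652.

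The coding sequence of the receptor-binding fold is shown for 5 ligands, because it is what these genes share apart from their names. It was found in GENCODE M21 transcripts (GRCm38) by the spacing of cysteine codons, and each sequence runs from the first to the last of the 6 cysteine codons, which are in capitals. All are coding sequence and cross 1 exon junction.
Areg, codons 139 to 174 of Areg-201: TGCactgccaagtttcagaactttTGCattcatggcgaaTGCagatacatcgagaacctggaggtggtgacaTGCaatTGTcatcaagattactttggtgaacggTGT
Btc, codons 69 to 104 of Btc-201: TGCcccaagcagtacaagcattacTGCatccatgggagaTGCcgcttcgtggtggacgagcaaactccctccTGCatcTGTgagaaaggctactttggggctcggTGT
Ereg, codons 61 to 96 of Ereg-201: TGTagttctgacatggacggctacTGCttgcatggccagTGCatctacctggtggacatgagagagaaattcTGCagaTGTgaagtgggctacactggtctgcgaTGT
Epgn, codons 59 to 94 of Epgn-201: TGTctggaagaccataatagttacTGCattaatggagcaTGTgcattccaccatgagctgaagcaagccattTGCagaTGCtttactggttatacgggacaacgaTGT
Tgfa, codons 46 to 81 of Tgfa-201: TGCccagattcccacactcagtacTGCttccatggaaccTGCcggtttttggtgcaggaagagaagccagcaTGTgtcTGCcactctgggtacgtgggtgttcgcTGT
The 5 sequences had the same length, 108 bases, and the same gaps between the cysteine codons, of 7, 4, 10, 1 and 8 codons. The search itself required the gaps of 7, 1 and 8 codons and let the other gaps vary only within narrow limits. Most of this likeness was therefore set in advance. The bases between the cysteine codons varied. Identity ran from 45.4% between Ereg and Tgfa to 62.0% between Tgfa and Btc, and was 57.4% between Areg and Btc.

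Polyadenylated RNA of the whole mixture was sequenced, so a level sums over all cell types present, and fewer cells of a type cannot be told apart from less RNA per cell. Levels are given in TPM, the length-scaled share of transcripts that StringTie reports. Per library, 1.39 to 1.84 Gb of bases were aligned, and 10867 to 12362 genes reached 1 TPM. Cancer cell and leukocyte transcripts were both present. The summed level of 16 colon epithelium genes was 6397 to 7890.4 TPM in the trogocytic co-cultures and 3911 to 10331 TPM in the non-trogocytic ones. That of 10 pan-leukocyte genes was 1344 to 3897 TPM in the trogocytic and 903 to 5229.8 TPM in the non-trogocytic co-cultures. A gene was tested when it reached 1 TPM in at least 4 libraries, which 11433 genes did. Of the 10 genes followed here, 8 passed this filter, and Epgn and Erbb2 did not.

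Areg, Btc and Hbegf supplied nearly all of the ligand transcripts in both kinds of co-culture. Together they made up 92.5% to 99.0% of the summed TPM of the 6 ligands in the trogocytic libraries and 91.6% to 99.0% in the non-trogocytic libraries. The sum itself was 101 ± 17.2 TPM in the trogocytic and 95.9 ± 16.7 TPM in the non-trogocytic co-cultures (SD, n = 4 each). Areg took 19.8% to 43.3% of the sum in the trogocytic libraries and 12.0% to 27.4% in the non-trogocytic libraries. Btc took 23.6% to 47.8% in the trogocytic libraries and 36.0% to 49.5% in the non-trogocytic libraries, and the ranges of both genes overlapped.

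**Figure D1:**
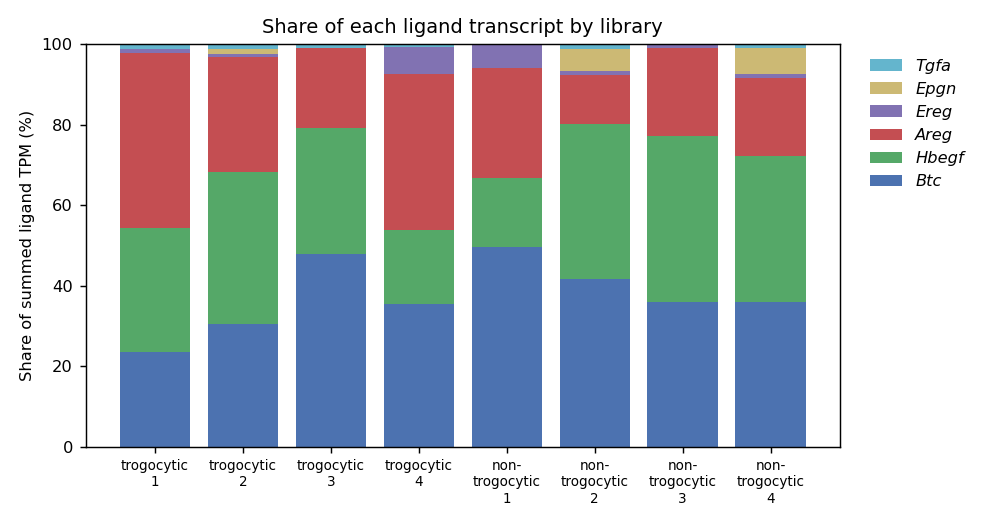
Each bar is 1 library and stacks the share, in percent, of each of the 6 ligand genes in their summed TPM, with trogocytic libraries on the left and non-trogocytic ones on the right. Areg, Hbegf and Btc fill at least 91.6% of every bar.

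Areg was the only one of the 10 genes whose levels did not overlap between the groups. Areg (ENSMUSG00000029378.5) stood at 41.3, 29.2, 24.5 and 32.1 TPM in trogocytic replicates 1 to 4, against 21.4, 12.3, 19.2 and 22.3 TPM in non-trogocytic replicates 1 to 4. The lowest trogocytic library was thus just above the highest non-trogocytic one. The means were 31.8 ± 7.07 TPM and 18.8 ± 4.53 TPM (SD, n = 4 each). On the log2(TPM + 1) scale the fold change was 0.74 ± 0.31 (SE), with a 95% interval of 0.04 to 1.43. The gene did not pass limma's test over all genes (adjusted p = 0.9998, unadjusted p = 0.0395). In all tested genes, groups were separated in this direction in 1.37% and in either direction in 2.68%, and 1 of the 8 tested members was. Areg has 1 annotated transcript of 1215 bases, and its coverage corresponded to 98.6 to 146 read pairs in the trogocytic and 53.2 to 109.6 read pairs in the non-trogocytic libraries, if each pair covered 200 bases. Relative to the mean of the colon epithelium genes, the log2 fold change of Areg was 0.83, and with the mean of the leukocyte genes as a covariate it was 0.73. It passed in neither (limma adjusted p = 0.9997 and 0.6743).

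The 250 bases before the annotated starts of Areg and Btc are shown because these neighbours on chromosome 5 were among the most abundant ligands. The pair was picked with the levels known, since the groups overlapped for Btc and not for Areg. A difference between these genes was not tested. The sequences are from RefSeq (GRCm38.p6), 5′ to 3′ on the strand of the gene, and RefSeq windows were found for 7 of 9 members looked up. Capitals mark matches to the cAMP response element TGACGTCA, the AP-1 motif TGANTCA and the TATA box TATAAA, searched on both strands.
Areg, chr5:91139349-91139598, plus strand: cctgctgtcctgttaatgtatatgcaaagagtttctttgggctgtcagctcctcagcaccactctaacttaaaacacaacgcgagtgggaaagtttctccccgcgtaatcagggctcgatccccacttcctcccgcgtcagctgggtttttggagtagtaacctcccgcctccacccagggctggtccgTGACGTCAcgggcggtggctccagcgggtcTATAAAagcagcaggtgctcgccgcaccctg
Btc, chr5:91402995-91403244, minus strand: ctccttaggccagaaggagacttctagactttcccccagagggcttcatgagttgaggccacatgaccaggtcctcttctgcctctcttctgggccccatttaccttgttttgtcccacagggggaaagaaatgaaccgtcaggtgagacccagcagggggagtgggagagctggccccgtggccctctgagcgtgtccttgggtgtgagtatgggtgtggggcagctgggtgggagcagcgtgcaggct
The Areg window held 1 cAMP response element that begins 61 bases before the start and 1 TATA box that begins 31 bases before it, and the Btc window held none of the 3 motifs. The window of Epgn, of the same stretch of chromosome 5, also held 1 TATA box. Of 27025 windows of this length, 1.62% held the response element, 6.87% the AP-1 motif and 13% the TATA box. These motifs do not overlap one another in the Areg window, and a match is a description of the letters only.

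Btc and Hbegf, the other abundant ligands, had ranges that overlapped between the groups. Btc (ENSMUSG00000082361.6) stood at 22.5, 31.2, 59.3 and 29.4 TPM in the trogocytic libraries, against 38.5, 42.5, 31.7 and 41.6 TPM in the non-trogocytic libraries. Trogocytic replicate 3 held the highest level of all and trogocytic replicate 1 the lowest, so the trogocytic range enclosed the other. The log2 fold change was −0.20 ± 0.32 (SE) with a 95% interval of −0.91 to 0.51 (limma adjusted p = 0.9998), and it was −0.47 without trogocytic replicate 3 and −0.02 without trogocytic replicate 1. Hbegf (ENSMUSG00000024486.5), which also serves as the entry receptor for diphtheria toxin in human cells, stood at 29.4, 38.5, 38.9 and 15.2 TPM in the trogocytic libraries, against 13.3, 39.3, 36.2 and 42.0 TPM in the non-trogocytic libraries. Trogocytic replicate 4 and non-trogocytic replicate 1 were far below the other libraries of their groups. The log2 fold change was −0.06 ± 0.44 (SE) with a 95% interval of −1.03 to 0.90 (limma adjusted p = 0.9998).

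Levels per transcript length were set side by side within a library, but how evenly TPM measures different genes here was not tested. Among commonly used reference genes, Gapdh stood at 51.5 to 152 TPM over the 8 libraries. Hprt stood at 737 to 989.7 TPM and Ppia at 2605 to 3748 TPM. The order between genes below is therefore that of the listed values only. Btc had the highest mean of the 10 genes over the 8 libraries, 37.1 TPM, followed by Hbegf with 31.6 TPM and Areg with 25.3 TPM. The order of these neighbours was not stable, since Btc was above Hbegf in 4 of 8 libraries and Hbegf above Areg in 5 of 8. By the deposited coverage, also compared within each library, Btc was above Hbegf in 2 of 8, and the reason for the difference was not tested. Areg was above Btc in 2 of 4 trogocytic libraries and in 0 of 4 non-trogocytic libraries. Erbb3 was next with 17.2 TPM, below Areg in 6 of 8 libraries and above Ereg in 8 of 8. The other 6 genes averaged 1.83 TPM or less. Among them the order of neighbours in mean level changed from library to library, and each pair of neighbours had at least 1 library in which the order was the other way round.

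**Figure D2:**
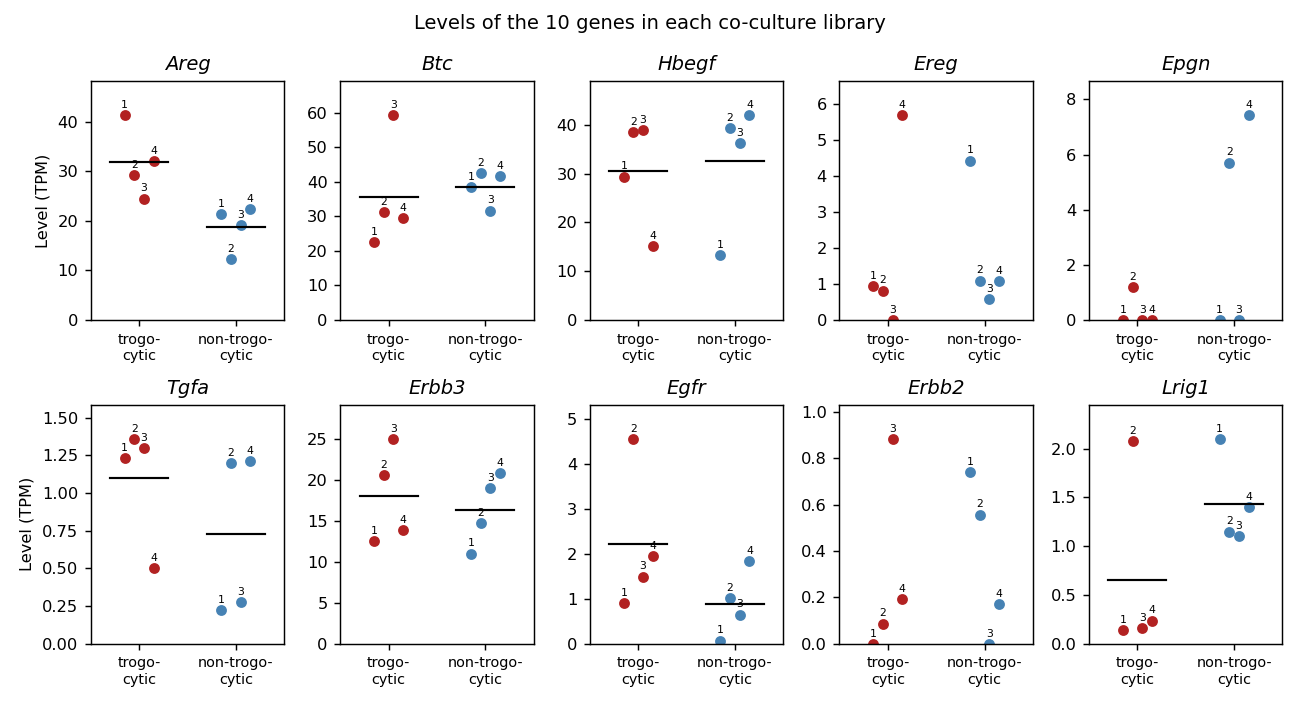
Each panel is 1 gene, and each point is the level (TPM, linear axis from 0) of 1 library, numbered by replicate, with trogocytic libraries in red on the left and non-trogocytic ones in blue on the right. Bars are group means, drawn only for genes above 0 in every library. Areg is the only panel in which the 2 groups do not overlap.

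The low ligands varied mostly by single libraries. Ereg (ENSMUSG00000029377.5), the neighbour of Areg, stood at 0.944, 0.818, 0 and 5.68 TPM in the trogocytic libraries, against 4.42, 1.09, 0.582 and 1.08 TPM in the non-trogocytic libraries. It was highest in trogocytic replicate 4 and non-trogocytic replicate 1, the same libraries in which Hbegf was lowest. The log2 fold change of Ereg was −0.16 ± 0.63 (SE), with a 95% interval of −1.55 to 1.22 (limma adjusted p = 0.9998), and it turned to 0.21 when non-trogocytic replicate 1 was left out and to 0.22 when trogocytic replicate 3 was. Areg was above Ereg in 8 of 8 libraries. Tgfa (ENSMUSG00000029999.14) stood at 1.23, 1.36, 1.3 and 0.504 TPM in the trogocytic libraries, against 0.223, 1.2, 0.277 and 1.21 TPM in the non-trogocytic libraries. The groups overlapped, and the log2 fold change was 0.32 ± 0.39 (SE) with a 95% interval of −0.54 to 1.17 (limma adjusted p = 0.9998). It was 0.17 and 0.19 with non-trogocytic replicate 1 or 3 left out. Epgn (ENSMUSG00000035020.11), a low-affinity EGFR ligand, was listed at 0, 1.18, 0 and 0 TPM in the trogocytic libraries, against 0, 5.71, 0 and 7.43 TPM in the non-trogocytic libraries. It was above 0 in 3 of 8 libraries, did not reach the filter and was not tested. The reads behind these values differed by gene. If each pair covered 200 bases, Ereg rested on 74.1 read pairs in trogocytic replicate 4 and 77.1 in non-trogocytic replicate 1, and on 16.1 or fewer in the other libraries. Tgfa has 4 annotated transcripts, so its number is less certain. With all of its coverage on the longest, it would equal 0.798 to 4.32 read pairs per library. A 0 in some library was listed for 38.8% of all tested genes that averaged 1 to 2 TPM, and for 0.946% of those that averaged 20 to 100 TPM.

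Of the receptor transcripts, Erbb3 was the most abundant in every library. Erbb3 (ENSMUSG00000018166.8) stood at 12.5, 20.6, 25 and 13.9 TPM in the trogocytic libraries, against 11.0, 14.7, 19.0 and 20.8 TPM in the non-trogocytic libraries. The groups overlapped over most of their ranges. The log2 fold change was 0.12 ± 0.37 (SE) with a 95% interval of −0.69 to 0.92 (limma adjusted p = 0.9998). Its 6016-base transcript had a coverage equal to 219.7 to 498 read pairs per library, so its level rests on more reads than that of the other receptors.

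Egfr and Erbb2, the partners with active kinases, stood far lower. Egfr (ENSMUSG00000020122.16) stood at 0.899, 4.55, 1.49 and 1.95 TPM in the trogocytic libraries, against 0.0669, 1.01, 0.647 and 1.84 TPM in the non-trogocytic libraries. Trogocytic replicate 2 was highest and non-trogocytic replicate 1 lowest, and the other libraries of both groups lay between them with overlap. The log2 fold change was 0.74 ± 0.48 (SE) with a 95% interval of −0.32 to 1.80 (limma adjusted p = 0.9998), and it was 0.44 without trogocytic replicate 2 and 0.49 without non-trogocytic replicate 1. Erbb2 (ENSMUSG00000062312.5) was listed at 0, 0.0863, 0.883 and 0.192 TPM in the trogocytic libraries, against 0.739, 0.557, 0 and 0.171 TPM in the non-trogocytic libraries. It reached 1 TPM in 0 of 8 libraries and was not tested. Erbb2 overlaps Mien1 on the other strand, which averaged 333 TPM, and the strand setting of the counting is not given in the sources used here, so the division of reads between them is uncertain.

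Lrig1, the receptor inhibitor, was low in 3 of the 4 trogocytic libraries. Lrig1 (ENSMUSG00000030029.14) stood at 0.141, 2.08, 0.162 and 0.237 TPM in the trogocytic libraries, against 2.10, 1.15, 1.10 and 1.40 TPM in the non-trogocytic libraries. All 4 non-trogocytic libraries lay above trogocytic replicates 1, 3 and 4, while trogocytic replicate 2 lay just below the highest non-trogocytic one. The log2 fold change was −0.68 ± 0.43 (SE) with a 95% interval of −1.63 to 0.27 (limma adjusted p = 0.9998), and it was −1.03 without trogocytic replicate 2. With the smaller pseudocount of 0.1 it was −1.68 and with a pseudocount of 5 it was −0.20, and neither passed. Lrig1 overlaps Slc25a26 on the other strand, which averaged 2.12 TPM, so its reads are uncertain. If all of its coverage lay on its longest transcript, it would equal 1.78 to 33.4 read pairs in the trogocytic and 18.0 to 36.1 in the non-trogocytic libraries.

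None of the 8 tested genes passed limma's test, and 1 of them, Areg, had an unadjusted p below 0.05. Over all tested genes, 0.0525% were called at an adjusted p below 0.05, 0.0175% higher and 0.035% lower in trogocytic co-cultures. An unadjusted p below 0.05 was found for 4.59%, and for 2.07% with the higher level in trogocytic co-cultures, as for Areg. The fold change was above 0 for 4 of the 8 and below 0 for 4, with a median of 0.03 on the log2 scale, against 0.007 over all tested genes. Every interval but that of Areg included 0, and each of the other 7 reached from at most −0.32 to at least 0.27 on the log2 scale.

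**Figure D3:**
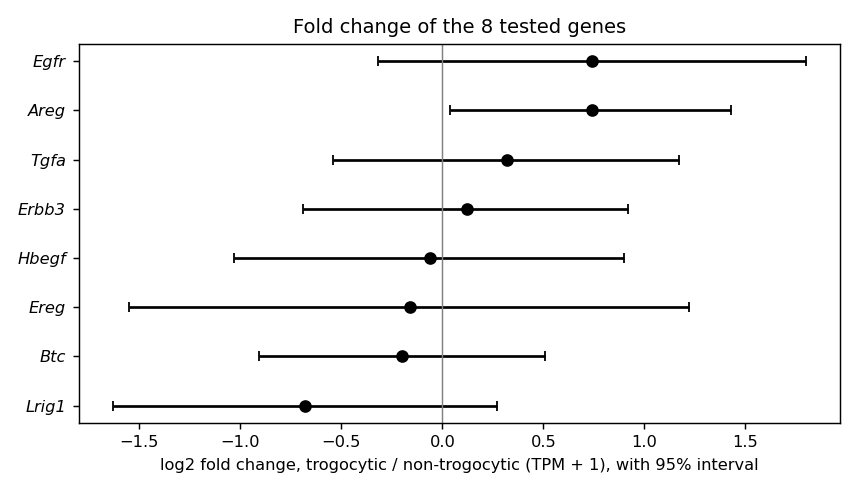
Points are the log2 fold changes of the 8 tested genes, trogocytic over non-trogocytic on the log2(TPM + 1) scale, and bars are 95% intervals from limma. The interval of Areg, 0.04 to 1.43, is the only one that does not reach 0.

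Other genes of the family were near the limit of detection. Egf, the founding ligand, was listed at 0.383 and 3.17 TPM in trogocytic replicates 1 and 2 and at 0 in the other 6 libraries. Nrg1, a neuregulin that binds ERBB3 and ERBB4, stood at 3.26 TPM in trogocytic replicate 1, 3.54 TPM in non-trogocytic replicate 1 and 0.0863 TPM in trogocytic replicate 2, and was listed at 0 elsewhere. Nrg4, a ligand of ERBB4, stood at 0.00946 to 0.624 TPM in the trogocytic and 0.219 to 0.717 TPM in the non-trogocytic libraries. Nrg2, Nrg3 and the receptor gene Erbb4 were listed at 0 in all 8 libraries, so of the receptors that bind neuregulins only Erbb3 was detected.

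Transcripts for ligand release and signalling were present in both groups, though some of the genes were at or near 0. None of 57 tested pathway genes other than the members was called. Of the proteases and helpers of ligand shedding, 8 of 13 were tested, with 3 fold changes above 0 and 5 below. Those not tested were Adam12 and Nkd2, listed at 0 in all 8 libraries, and Rhbdf1, Rhbdf2 and Adam8, which averaged 0.151, 0.815 and 1.19 TPM. Adam17 stood at 3.7 to 22.1 TPM in the trogocytic and 5.04 to 14.8 TPM in the non-trogocytic libraries. Adam10, the sheddase of betacellulin, stood at 78.9, 37.5, 47.7 and 36.1 TPM in the trogocytic libraries, against 87.1, 71.9, 61.5 and 45.5 TPM in the non-trogocytic libraries. The ranges overlapped, and the log2 fold change was −0.44 with a 95% interval of −1.13 to 0.25. Rhbdl2, a rhomboid protease that can cleave EGF, stood at 13.4 to 23.9 TPM in the trogocytic and 12.0 to 31.5 TPM in the non-trogocytic libraries. Frmd8, which keeps the sheddase ADAM17 stable at the surface, stood at 2.15 to 9.3 TPM in the trogocytic and 0.975 to 3.87 TPM in the non-trogocytic libraries. The median log2 fold change of this list was −0.12, and it came to 0.0 when trogocytic replicate 2 was left out and to 0.04 when non-trogocytic replicate 2 was.

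Among 20 receptor inhibitors and feedback genes, 17 were tested, 9 with a fold change above 0 and 8 below. Spry2, a Sprouty protein that restrains RAS and MAP kinase signalling, was the only one whose groups did not overlap. Spry2 stood at 258, 238, 267 and 207 TPM in the trogocytic libraries, against 189, 143, 186 and 165 TPM in the non-trogocytic libraries. Every trogocytic library was above every non-trogocytic one, with a log2 fold change of 0.51 ± 0.17 (SE) that did not pass limma's test (adjusted p = 0.9498). Over all tested genes, 1.37% were separated in this direction and 2.68% in either direction, beside 1 of these 17. Spred1, a related inhibitor, stood at 8.88 to 18.8 TPM in the trogocytic and 12.0 to 22 TPM in the non-trogocytic libraries. The phosphatase gene Ptpn2 stood at 59.3 to 78.9 TPM in the trogocytic and 53.1 to 91.4 TPM in the non-trogocytic libraries.

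Of 25 adaptor and kinase genes, 21 were tested, 12 with a fold change above 0 and 9 below. Nras, a RAS gene, was the most abundant, at 584, 457, 435 and 392 TPM in the trogocytic and 468, 337, 344 and 374 TPM in the non-trogocytic libraries, with overlap. Akt2, a kinase downstream of PI3 kinase, stood at 3.18, 4.11, 3.41 and 5.17 TPM in the trogocytic libraries, against 0.910, 3.83, 1.21 and 0.140 TPM in the non-trogocytic libraries. Only non-trogocytic replicate 2 reached into the trogocytic range, and the log2 fold change of 1.16 ± 0.50 (SE) did not pass (limma adjusted p = 0.9998). The RAF kinase genes Braf and Araf stood at 15.4 to 40.2 and 10.5 to 59.4 TPM in the trogocytic libraries, against 12.1 to 19.0 and 22.1 to 34.0 TPM in the non-trogocytic libraries.

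Of 17 genes known as transcriptional targets of EGFR and MAP kinase signalling, Areg and Ereg among them, 15 were tested, 7 with a fold change above 0 and 8 below. Emp1, an epithelial membrane protein gene, had groups that did not overlap. Emp1 stood at 279, 292, 357 and 293 TPM in the trogocytic libraries, against 243, 212, 219 and 199 TPM in the non-trogocytic libraries, a log2 fold change of 0.48 ± 0.16 (SE) that did not pass (limma adjusted p = 0.9388). Plaur, the urokinase receptor gene, overlapped widely, with 160.5 to 366 TPM in the trogocytic and 117 to 427 TPM in the non-trogocytic libraries. The median of the list was −0.10 on the log2 scale, and it was 0.34 without non-trogocytic replicate 2. That library held the highest level of 6 of the 15 tested targets, Phlda1, Ccnd1, Fosl1, Myc, Dusp6 and Plaur, and the lowest level of Areg. Of the 57 tested pathway genes that are not members, 2 were separated between the groups, both higher in trogocytic co-cultures, beside 2.68% of all tested genes in either direction.

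**Figure D4:**
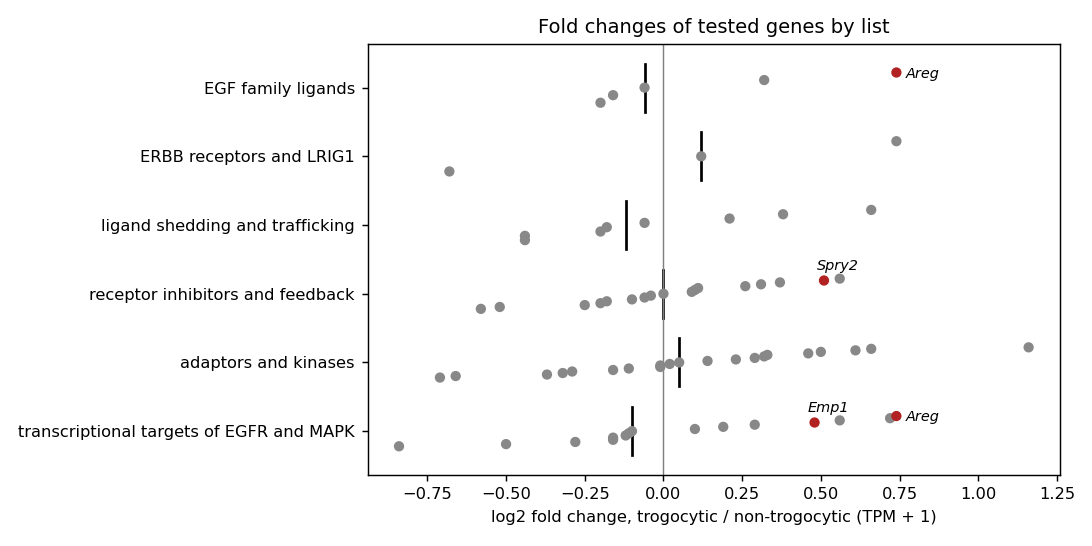
Each point is the log2 fold change (trogocytic over non-trogocytic, TPM + 1) of 1 tested gene, in rows by list, and black bars are list medians. Red points with names are genes whose groups do not overlap, Areg, Spry2 and Emp1, and Areg stands in both lists that hold it.

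The levels of the receptors and ligands were also set beside the cell content of the libraries, by correlating each of the 8 tested genes with the mean log2(TPM + 1) of the colon epithelium genes and of the leukocyte genes. That gave 16 relations over the 8 libraries, adjusted together by the Benjamini-Hochberg method. Erbb3 ran against leukocyte content, with Pearson's r = −0.91 (exact permutation p = 0.002, adjusted 0.0325) and Spearman's rho = −0.95 (exact permutation p = 0.0011, adjusted 0.0183). It remained at r = −0.79 without trogocytic replicate 1 and non-trogocytic replicate 1, the libraries farthest from the median. The relation did not pass after median-of-ratios scaling of the libraries (r = −0.77, adjusted exact permutation p = 0.2591). With 1 library left out, r was −0.96 to −0.87, and the adjusted exact permutation p was 0.0984 without trogocytic replicate 2, 0.1587 without trogocytic replicate 3, and 0.1444, 0.0921 and 0.0889 without non-trogocytic replicates 1, 3 and 4. Hbegf ran the same way, with r = −0.81 (exact permutation p = 0.0113, adjusted 0.0905) and rho = −0.90 (exact permutation p = 0.0046, adjusted 0.0365), and r = −0.81 without the same libraries. The relation of Areg did not pass (r = 0.32, exact permutation p = 0.4502, and rho = 0.14, exact permutation p = 0.752), and r was 0.17 without them. No gene passed against the epithelium genes, whose relation with Erbb3 was r = 0.26 (exact permutation p = 0.5468) and rho = 0.31 (exact permutation p = 0.4618), with r = 0.13 without non-trogocytic replicates 1 and 2. All values are parts of 1 total per library, the labels name no batch, and groups of 4 are too small for a value within each.

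**Figure D5:**
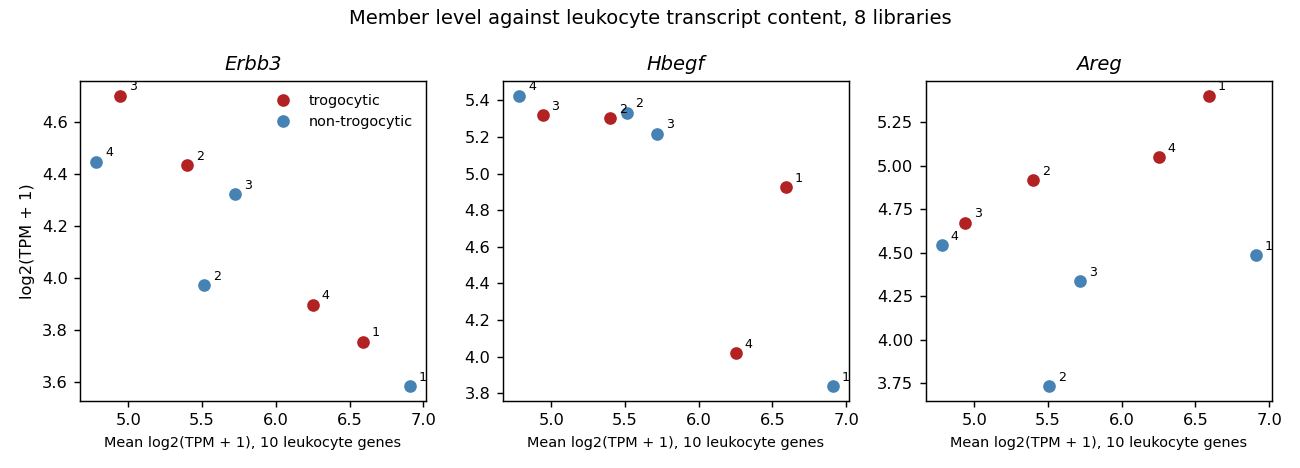
Each point is 1 library, numbered by replicate, trogocytic in red and non-trogocytic in blue, with the mean log2(TPM + 1) of 10 leukocyte genes on the x axis and the log2(TPM + 1) of Erbb3, Hbegf or Areg on the y axis (log scales, y axes cut to the data). Erbb3 and Hbegf tend to be lower where leukocyte content is higher, but Hbegf stands at 29.4 TPM in trogocytic replicate 1, where that content is 6.59. The relation did not pass for Hbegf by Pearson's r, nor for Erbb3 after median-of-ratios scaling. The Areg points of the trogocytic libraries lie above those of the non-trogocytic ones.

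Markers of other cells that can make these ligands moved as follows, and their part in the levels of Areg was not tested. Of 9 genes of mast cells, basophils and type 2 innate lymphoid cells, Fcer1a, Ms4a2, Il1rl1 and Il5 were listed at 0 in all 8 libraries. Cpa3 stood at 6.42 and 8.78 TPM in trogocytic replicates 1 and 2 and 16.6 TPM in non-trogocytic replicate 1. Mcpt8 stood at 6.02 TPM in trogocytic replicate 3 and 4.55 TPM in non-trogocytic replicate 1. In the other libraries Cpa3 was at most 1.65 TPM and Mcpt8 at most 0.61 TPM. The summed level of the list was 4.82 to 12.3 TPM in the trogocytic and 3.76 to 25.3 TPM in the non-trogocytic libraries. Of this, Gata3 was 3.01 to 4.82 TPM in the trogocytic and 2.46 to 21.0 TPM in the non-trogocytic libraries. Of the 8 tested genes of T and B cells, 8 had a fold change above 0 and none was called, with summed levels of 347 to 1289 TPM in the trogocytic and 113 to 932 TPM in the non-trogocytic libraries. All 7 tested macrophage genes were below 0 in fold change and 0 of them called, with summed levels of 1607 to 5088 TPM in the trogocytic and 3216 to 14302 TPM in the non-trogocytic libraries. Over all tested genes, 50.7% had a fold change above 0. Markers of 1 cell type can vary together with its share of a library, so they are not independent genes. The fibroblast collagen genes Col1a1, Col1a2 and Col3a1 were listed at 0 in all 4 trogocytic libraries and above 0 in all 4 non-trogocytic ones. Col1a1 stood at 0.937, 1.5, 2.91 and 0.313 TPM in non-trogocytic replicates 1 to 4, and Col1a2 at 2.07, 2.15, 7.4 and 0.221 TPM. None of the 3 reached the filter, so they were not tested. They were named after their values were seen, and the share of genes below the filter that separate in this way was not measured. In non-trogocytic replicates 1 to 4, Dcn stood at 0, 4.47, 22.1 and 0 TPM and Lum at 0, 1.94, 2.25 and 0 TPM. Both overlapped with the trogocytic libraries. Thy1, the only tested gene of the list, had a log2 fold change of 0.91, with a 95% interval of −0.5 to 2.32. The whole list of 8 fibroblast genes summed to 1.44 to 8.96 TPM in the trogocytic libraries, of which Thy1, also a T cell gene, was 1.44 to 8.77 TPM, and to 0.812 to 40.0 TPM in the non-trogocytic libraries. Endothelial genes summed to 0.00551 to 8.23 TPM in the trogocytic and 1.87 to 5.7 TPM in the non-trogocytic libraries. Of 8 hepatocyte genes, only Ass1, which other cells also express, was above 0 in every library, at 14.2 to 23.9 TPM in the trogocytic and 10.6 to 39.5 TPM in the non-trogocytic libraries. Alb, Apoa1, Ttr, Fgb, Serpina1a and Cyp3a11 were above 0 in non-trogocytic replicate 3 alone, where Apoa1 stood at 56.0 TPM, and Tat was listed at 0 in all 8 libraries.

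Finally, the genes most like Btc and Erbb3, the ligand and the receptor of highest mean TPM, were sought among 6051 other genes with a mean of at least 10 TPM, over the 8 libraries and after removal of the group means. The 3 most like Btc were Gm6863 (Pearson's r of 0.96), Ska2 (0.949) and Ftsj3 (0.948), and 22 genes were above 0.9. The 3 most like Erbb3 were Ndufa4 (0.993), Ncl (0.988) and Khdc1a (0.984), and 138 genes were above 0.9. These are the highest of many values over few libraries that share their total, and are given as a description only.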

How the data were processed

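RNA of 8 libraries was sequenced as paired-end reads of 100 bases from a low-input kit, per the labels' protocols. HISAT2, StringTie 1.3.3 and DESeq 2 are the tools, and GRCm38 and mm10 the builds, in the submitters' processing notes. Neither annotation release nor strand setting is given in the sources used here. Per the file headers, each deposited table gives a coverage, an FPKM and a TPM per gene. Coverage was taken as mean read depth, unscaled, and the TPM as scaled to 1 sum per library.

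TPM was summed per gene ID, and 9 of the 10 member IDs matched GENCODE M21. Genes with at least 1 TPM in 4 or more libraries were tested with limma 3.58.1 (R 4.3.3) on log2(TPM + 1), with a trend of the variance on the mean. Tests were two-sided, p-values were adjusted by the Benjamini-Hochberg method, and calls were made at an adjusted p below 0.05. This scale understates changes of low genes. No count test was used, since the values are not counts. Aligned bases were taken as coverage over FPKM of genes with 1 transcript, and read pairs as coverage times the longest transcript over 200 bases. Correlations used exact permutation over all pairings, two-sided.

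The members and gene lists were chosen with earlier results of these data known. Named were all members, Egf, the neuregulins and Erbb4, and the 3 genes most like Btc and Erbb3. Of each pathway list, the 2 genes of smallest p and the 2 of highest mean TPM were named. Apoa1, Ass1, Thy1, Dcn, Cpa3 and Gata3 came from the 2 of highest mean TPM in each marker list. All other markers were named after their values were seen. So were Phlda1, Ccnd1, Fosl1, Myc, Dusp6, Adam17, the shedding genes below the filter and the genes in the closing section. Alternatives covered pseudocount, unit, filter, scaling, variance model, covariate, replicate block and each library left out.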

Additional observations from a re-analysis of the deposited data

Results flagged for a closer look

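Within each group of 4 libraries, a gene's highest or lowest level was set apart when its gap to the nearest library as a share of the group's range exceeded Dixon's 95% critical value. Of 20 groups of the 10 genes, 5 held such a library. Chance sets apart about 1 group in 20 where values are normally distributed, which levels near 0 TPM are not, and the share over other genes of like level was not measured, so no excess is read from the 5. Ereg stood at 5.68 TPM in trogocytic replicate 4, above the other trogocytic libraries, and at 4.42 TPM in non-trogocytic replicate 1, above the other non-trogocytic libraries. The mean log2(TPM + 1) of the leukocyte genes was 6.25 in trogocytic replicate 4 and 6.91 in non-trogocytic replicate 1, and it was 6.59 in trogocytic replicate 1, where Ereg stood at 0.944 TPM. Over all 8 libraries the relation of Ereg to leukocyte content did not pass (r = 0.67, exact permutation p = 0.0657, adjusted 0.3017, and rho = 0.48, exact permutation p = 0.2431, with r = 0.73 without trogocytic replicate 1 and non-trogocytic replicate 1). Tgfa stood at 0.504 TPM in trogocytic replicate 4, below the other trogocytic libraries. Epgn stood at 1.18 TPM in trogocytic replicate 2 and was listed at 0 in the other trogocytic libraries. Lrig1 stood at 2.08 TPM in trogocytic replicate 2, above the other trogocytic libraries.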

How the results depend on the processing

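None of the 10 members was called in any alternative run. Areg kept a fold change above 0 in 21 of 21 alternatives, with log2 values from 0.56 to 0.85 and limma adjusted p-values from 0.6743 to 0.9999. Tgfa and Egfr kept theirs above 0 and Btc and Lrig1 below 0 in all alternatives that tested them, but their sizes moved. Egfr was 1.46 and Tgfa 0.75 with a pseudocount of 0.1, and Egfr was 0.28 and Tgfa 0.09 with a pseudocount of 5. Btc was −0.01 and Tgfa 0.13 with both first replicates left out. Ereg reversed to 0.01 with array weights and 0.27 with both first replicates left out, an alternative chosen after seeing the data, and ran from −0.7 to 0.22 when 1 library was left out. Hbegf was 0.03 relative to the epithelium list and ran from −0.43 to 0.23 when 1 library was left out, and Erbb3 from −0.05 to 0.26. Leaving out 1 library gave −0.28 to 0.16 for Rhbdl2, −0.12 to 0.14 for Ptpn2 and −0.2 to 0.6 for Araf. Among pathway genes, Rhbdl2 was 0.03 relative to the epithelium list, Ptpn2 was −0.00081 with a pseudocount of 5, −0.05 in FPKM, −0.0015 with median-of-ratios scaling with or without the replicate block, −0.12 with array weights and −0.19 with both first replicates left out, where Araf was −0.28 and Plaur −0.0034. The 6 genes called over all were 3 with a pseudocount of 5 or in FPKM, 1 with no filter or no trend, 12 with the leukocyte covariate and 0 relative to the epithelium list, with both first replicates left out, and with the replicate block, with or without scaling. Leaving out 1 library gave 0 to 3 calls, and 0 for trogocytic replicates 1, 2 and 3 and non-trogocytic replicate 3. Of 16 content relations, 1 passed by Pearson's r and 2 by Spearman's rho. By Pearson's r, 0 passed after median-of-ratios scaling, and 0 to 2 when 1 library was left out. Deviations of libraries with the same replicate number correlated at −0.093 to 0.235, above 0.1 in 1 of 4 pairs, and 3 of 8 libraries correlated best with their own number, so the numbers were not taken to pair the libraries. The causes were not tested. By coverage, Tgfa was above Erbb2 in 4 of 8 libraries, against 7 by TPM, and Lrig1 above Tgfa in 6, against 4. If all of their coverage lay on the longest transcript, Tgfa and Erbb2 would rest on at most 4.32 and 15 read pairs per library.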

Other observations

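Trogocytic replicate 2 held the highest levels of Egfr (4.55 TPM) and of Egf (3.17 TPM) of all 8 libraries, and among the trogocytic libraries also those of Lrig1 (2.08 TPM) and Epgn (1.18 TPM). Its epithelium mean, 6.08 on the log2(TPM + 1) scale, was the highest of the trogocytic libraries, whose lowest was 5.78. Non-trogocytic replicate 2 had the highest epithelium mean of all, 6.71, with 432 TPM of Phlda1 and 137 TPM of Myc, against 63.3 to 154 TPM and 41.1 to 79.3 TPM in the other non-trogocytic libraries. It had 12.3 TPM of Areg, the lowest of the 8 libraries. These genes and libraries were singled out after their values were seen, and no test was run.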
